A study of Mus musculus with 4 samples.

Results

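Retnla and 8 further genes known from tissue-resident macrophages (Mgl2, Fcna, Folr2, Lyve1, Cd163, F13a1, Prg4 and Saa3) were followed through single-cell transcriptomes of mouse lung macrophages, 9 genes of 32285 in the count files. They were chosen because earlier results on the same libraries had shown them to move, so their levels and folds are given as a description, with no test. The libraries came from female mice, littermates per the labels, 1 library per group. The groups were MMTV-HER2 at 32 weeks with palpable tumours (HER2 late), wildtype FVB at 32 weeks (wildtype late), MMTV-HER2 at 16 weeks, the early lesion stage (HER2 early), and wildtype FVB at 16 weeks (wildtype early). The strain entry names both genotypes for every sample, so the genotype of a library rests on its title. In MMTV-HER2 mice a mouse mammary tumour virus promoter drives the HER2 oncogene in the mammary gland, and the lung is a distant organ. The number of mice behind each library and the antibodies of the sort are not given in the sources used here. Since each group is a single library, differences between them carry no replicate check, and intervals cover counting error only.

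Lung interstitial macrophages live in the tissue around airways and vessels, while alveolar macrophages live in the airspace. In mice, interstitial macrophages are known to fall into cells with much Lyve1 and Folr2 and little MHC class II, often beside blood vessels, and cells with much MHC class II and Cx3cr1. Retnla encodes a small secreted protein (RELM-alpha, also called Fizz1) that interleukin-4 and interleukin-13 induce in mouse macrophages through the transcription factor STAT6. The other 8 genes encode lectins (Mgl2, Fcna), surface receptors of such resident cells (Folr2, Lyve1, Cd163), a clotting factor subunit (F13a1), a lubricating glycoprotein known from macrophages of the body cavities (Prg4) and an acute-phase protein (Saa3).

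Cells were sorted into 3 classes by the UMIs of a few marker genes, a UMI being 1 counted RNA molecule. IM cells (interstitial macrophages) had at least 5 UMIs of C1qa, C1qb and C1qc together and more of these than of Chil3, Ear1, Ear2, Fabp1, Lpl and Plet1. AM cells (alveolar macrophages) had more of these 6 alveolar genes than of C1q, at no less than 0.4% of their UMIs, and the rest were other cells. IM cells numbered 661 in HER2 late, 633 in wildtype late, 455 in HER2 early and 330 in wildtype early. AM cells numbered 5702, 4245, 4413 and 4833 in the same order of libraries, and other cells 191, 251, 258 and 286. All 11 markers of the interstitial macrophage list had UMIs in the IM cells of every library. The list summed to between 24664 and 27981 CPM (UMIs scaled to 1000000 for the class), against 511 to 879 CPM for the alveolar list.

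The wildtype early library stood apart in these cells. A T cell list of 8 genes (Cd3d, Cd3e and others) summed to 80.7 CPM in IM cells of HER2 late, 181 CPM in wildtype late, 249 CPM in HER2 early and 2019 CPM in wildtype early. At least 3 UMIs of that list were found in 26 of 661, 34 of 633 and 29 of 455 IM cells of the first 3 libraries, but in 160 of 330 of wildtype early. Its IM cells also had the greatest median depth, 6440 UMIs, against 5234 in HER2 late, 3219 in wildtype late and 4502 in HER2 early. Cells with 3 or more UMIs of a T cell or other lineage list left 596, 573, 400 and 156 IM cells when taken out. Some values without them are given below, and the part of T cell RNA in those results was not tested.

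Retnla was held by very few cells with very many molecules each. It had 247 CPM in IM cells of HER2 late (95% Poisson interval 232 to 263), 623 CPM in wildtype late (590 to 656), 1242 CPM in HER2 early (1197 to 1288) and 677 CPM in wildtype early (645 to 710). The HER2 libraries were thus the lowest and the highest of the 4. A Retnla UMI was found in 30 of 661 IM cells of HER2 late (4.54%, exact binomial 95% interval 3.08 to 6.42), 18 of 633 of wildtype late (2.84%, 1.69 to 4.46), 53 of 455 of HER2 early (11.6%, 8.85 to 14.96) and 35 of 330 of wildtype early (10.6%, 7.499 to 14.4). By these shares both early libraries lay above both late ones, and HER2 and wildtype overlapped at either stage. With every cell thinned to 1000 UMIs the shares were 3.03%, 2.37%, 7.69% and 6.36% in the same order. The thinned intervals of HER2 late (20 of 661 cells) and wildtype early (21 of 330 cells) overlapped. The 3 richest cells held 51.9% of the Retnla UMIs of IM cells in HER2 late, 66.5% in wildtype late, 29.1% in HER2 early and 38.1% in wildtype early. With cells of other lineages taken out, Retnla was in 44 of 400 IM cells of HER2 early, at 1343 CPM, and in 13 of 156 of wildtype early (8.33%), at 787 CPM. A wildtype late cell alone had 425 Retnla UMIs among its 6779.

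**Figure D1:**
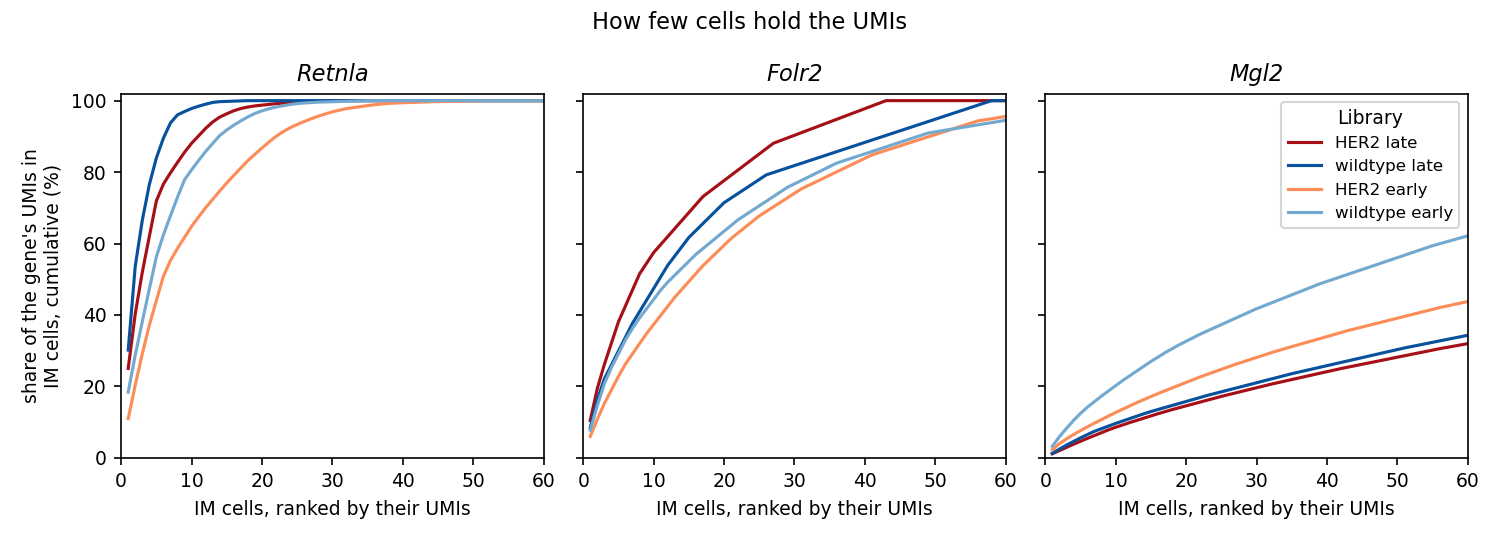
Cumulative share (%) of the UMIs of Retnla, Folr2 and Mgl2 in IM cells against the number of cells, ranked by their UMIs of that gene, up to 60 cells and with a line per library. Retnla reaches 50% within 2 to 6 cells in every library, Folr2 within 8 to 16 cells, while Mgl2 needs 41 to 120 cells.

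The bases upstream of Retnla are shown because the STAT6 route to this gene is well described. Beside them are the windows of Fcna, which shared cells with Retnla, and of Mgl2, which was spread over most IM cells. Sequences are from RefSeq (build GRCm38.p6), cut to the bases that also precede the GENCODE gene, and lie at chr16:48842359-48842550 on the plus strand (Retnla), chr2:25628031-25628224 on the minus strand (Fcna) and chr11:70130107-70130328 on the plus strand (Mgl2), each written 5′ to 3′. Capitals mark matches to a STAT6 motif (TTCNNNNGAA), a C/EBP motif (TTNNGCAA), a MAF core motif (TGCTGA) or a PU.1 motif (GAGGAAG) on either strand.
Retnla: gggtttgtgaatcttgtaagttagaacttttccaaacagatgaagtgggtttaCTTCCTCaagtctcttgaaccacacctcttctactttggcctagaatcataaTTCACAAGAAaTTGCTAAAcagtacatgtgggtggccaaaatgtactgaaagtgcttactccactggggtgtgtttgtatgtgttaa
Fcna: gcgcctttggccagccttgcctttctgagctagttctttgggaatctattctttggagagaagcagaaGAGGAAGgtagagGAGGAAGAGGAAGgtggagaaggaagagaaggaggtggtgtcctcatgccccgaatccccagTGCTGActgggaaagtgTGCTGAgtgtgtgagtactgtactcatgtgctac
Mgl2: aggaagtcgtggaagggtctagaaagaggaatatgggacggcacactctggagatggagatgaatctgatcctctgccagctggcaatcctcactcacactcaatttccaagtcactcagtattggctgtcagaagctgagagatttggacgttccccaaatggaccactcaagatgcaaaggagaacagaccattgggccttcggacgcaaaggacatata

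Within the 250 bases before the RefSeq start, the STAT6 letters were found in 5.85% of 32851 mouse windows and, of the 7 member genes with a window, in Retnla alone. They lay 145 to 136 bases before its start, next to a C/EBP match 134 to 127 bases before it, with no overlap. The C/EBP letters were in 9.56% of windows and in those of Retnla and Saa3. The MAF letters were in 16.1% of windows and in those of Fcna, Folr2, Retnla and Saa3, and the PU.1 letters were in 10.6% and in those of F13a1, Fcna and Retnla. Mgl2 held none of these letters in its window. A match is a run of letters only, and these data do not show whether any factor bound there.

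Mgl2, a galactose-binding lectin of macrophages and some dendritic cells, had the opposite spread over cells. A UMI of it was found in 550 of 661 IM cells of HER2 late (83.2%), 489 of 633 of wildtype late (77.3%), 348 of 455 of HER2 early (76.5%) and 215 of 330 of wildtype early (65.2%). Its level was 587 CPM in HER2 late (563 to 611), 784 CPM in wildtype late (748 to 822), 611 CPM in HER2 early (580 to 644) and 363 CPM in wildtype early (340 to 388). Wildtype early was the lowest and wildtype late the highest, also without cells of other lineages, when wildtype late had 826 CPM and wildtype early 512 CPM. Reads of Mgl2 and of its near-identical copy Clec10a cannot be fully told apart. Clec10a had 86.4, 137, 201 and 171 CPM in IM cells of HER2 late, wildtype late, HER2 early and wildtype early, an order unlike that of Mgl2.

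Fcna, Folr2, Lyve1, Cd163 and F13a1 were each lowest in HER2 late over all IM cells, and all but Cd163 also without cells of other lineages. Fcna encodes ficolin A, a secreted lectin that starts the lectin pathway of complement. It had 35.4 CPM in HER2 late (29.8 to 41.9), 86.2 CPM in wildtype late (74.5 to 99.1), 103 CPM in HER2 early (90.5 to 117) and 113 CPM in wildtype early (100.1 to 127). Folr2, the folate receptor beta, had 34.7 CPM in HER2 late (29.0 to 41.1), 68.0 CPM in wildtype late (57.7 to 79.7), 136 CPM in HER2 early (122 to 152) and 125 CPM in wildtype early (111 to 139). The early libraries overlapped in both genes. Once cells of other lineages were taken out, Fcna was at 104 CPM in HER2 early and 181 CPM in wildtype early, with Poisson intervals apart. Those intervals do not count the spread between cells. Fcna was then in 37 of 400 IM cells of HER2 early (9.25%) and 19 of 156 of wildtype early (12.2%). A wildtype early cell alone held 39 of the 164 Fcna UMIs.

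Lyve1, a hyaluronan receptor of lymphatic vessels and perivascular macrophages, had 33.4 CPM in HER2 late (27.9 to 39.7), 55.7 CPM in wildtype late (46.4 to 66.3), 127 CPM in HER2 early (113 to 142) and 118 CPM in wildtype early (105 to 132). F13a1, the catalytic subunit of coagulation factor XIII, had 66.5 CPM in HER2 late (58.6 to 75.1), 130 CPM in wildtype late (116 to 146), 243 CPM in HER2 early (224 to 264) and 233 CPM in wildtype early (214 to 253). Cd163, which clears haemoglobin bound to haptoglobin, had 55.1 CPM in HER2 late (47.9 to 63.0), 62.3 CPM in wildtype late (52.4 to 73.5), 72.9 CPM in HER2 early (62.3 to 84.8) and 77.8 CPM in wildtype early (67.2 to 89.6). The intervals of Cd163 overlapped between HER2 and wildtype at both stages, so its order within a stage could not be read. Its levels without cells of other lineages were 60.1 CPM in HER2 late, 53.3 CPM in wildtype late, 68.1 CPM in HER2 early and 46.5 CPM in wildtype early, then the lowest. Between 3.48 and 26.4% of IM cells held a UMI of any of these 5 genes, the lowest share being Lyve1 in HER2 late and the highest F13a1 in wildtype early. When cells of other lineages were left out, F13a1 was in 17.75% of IM cells of HER2 early and 12.2% of wildtype early.

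Prg4 and Saa3 rested on a handful of cells. Prg4 encodes lubricin. It had 11.9 CPM in IM cells of HER2 late (46 UMIs in 6 cells), 46.8 CPM in wildtype late (106 UMIs in 6 cells), 76.4 CPM in HER2 early (177 UMIs in 5 cells) and 16.1 CPM in wildtype early (40 UMIs in 6 cells). Leaving out cells of other lineages put Prg4 at 96.5 CPM in HER2 early and 37.6 CPM in wildtype early. Saa3 had 31.0 CPM in HER2 late (120 UMIs in 4 cells), 1.77 CPM in wildtype late (4 UMIs in 2 cells), 55.7 CPM in HER2 early (129 UMIs in 3 cells) and 1.21 CPM in wildtype early (3 UMIs in 2 cells). A HER2 late cell held 117 of the 120 Saa3 UMIs, and a HER2 early cell held 78 of the 129. The ends of Saa3 transcripts match transcripts of many other genes, and Prg4 overlaps Tpr on the other strand, so both counts are uncertain.

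**Figure D2:**
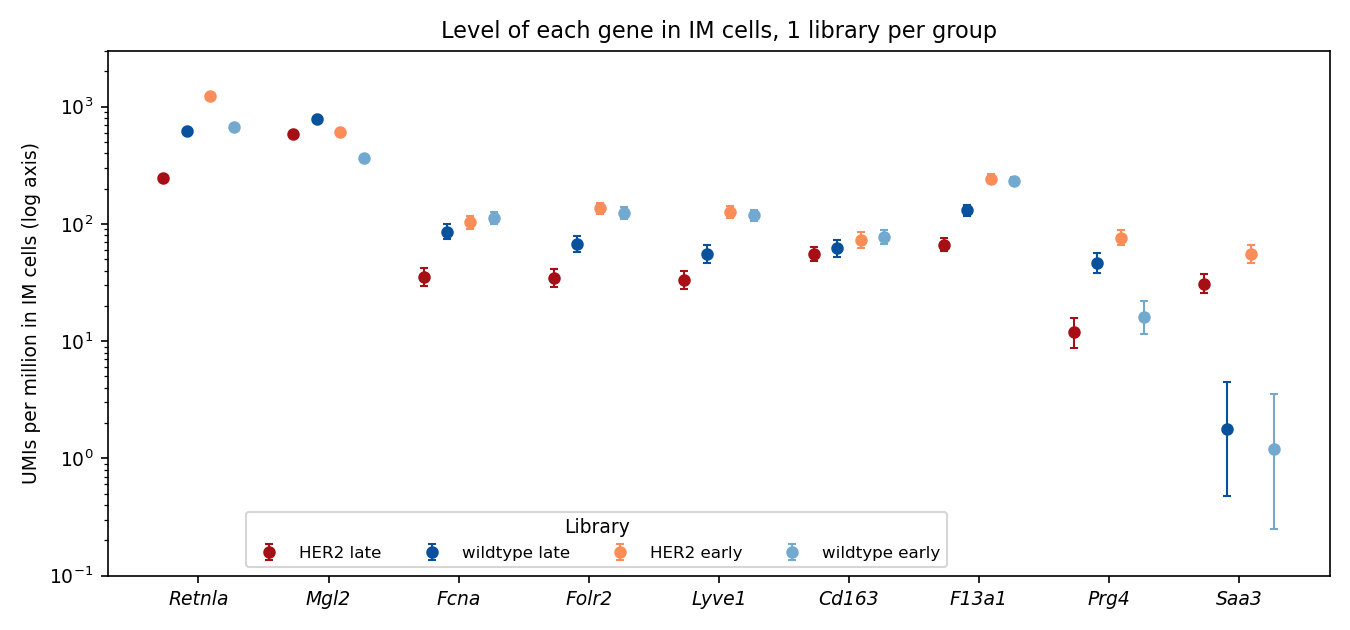
Level of each of the 9 genes in IM cells (CPM, log axis), a point per library with its 95% Poisson interval. HER2 late is the lowest point for Retnla, Fcna, Folr2, Lyve1, Cd163, F13a1 and Prg4, and Saa3 is above 30 CPM in both HER2 libraries and under 2 CPM in both wildtype libraries.

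The genes lie on 7 chromosomes of GRCm38 (mm10) and all are protein coding: Retnla on chromosome 16 (48842551 to 48844461), Mgl2 on 11 (70130329 to 70137550), Fcna on 2 (25624666 to 25628030), Cd163 on 6 (124304656 to 124330527), F13a1 on 13 (36867178 to 37050244) and Prg4 on 1 (150449412 to 150466165). Chromosome 7 carries Folr2 (101839988 to 101857194), Lyve1 (110850607 to 110863239) and Saa3 (46711998 to 46715700). Fcna, Folr2, F13a1 and Prg4 overlap genes on the other strand. Of the paralogs by name, Retn, Retnlb, Retnlg, Saa1, Saa2, Folr1 and Fcnb had between 0 and 4 UMIs in the IM cells of any library.

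AM cells were the background for these shares, since free RNA from broken cells reaches every droplet. Retnla UMIs were in 0.631% of AM cells in HER2 late, 0.589% in wildtype late, 2.15% in HER2 early and 1.03% in wildtype early, at median depths of 4370, 4752, 3728 and 4309 UMIs. Thinned to 1000 UMIs, these shares were 0.228%, 0.165%, 0.702% and 0.228%. Barcodes with 10 to 100 UMIs, which hold free RNA, had 104, 155, 1404 and 328 CPM of Retnla in HER2 late, wildtype late, HER2 early and wildtype early. Free Retnla and the AM share were thus both highest in HER2 early. For Fcna, Folr2, Lyve1, Cd163, F13a1, Prg4 and Saa3 at most 0.455% of AM cells held a UMI in any library, and the IM shares of the first 6 of these lay above that background in every library, with intervals apart. For Saa3 the intervals of IM and AM cells overlapped in all 4 libraries. In HER2 late, for example, its IM share was 0.605% (0.165 to 1.54) and its AM share 0.210% (0.109 to 0.367).

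In AM cells the level of Retnla was 12.2 CPM in HER2 late, 1.44 CPM in wildtype late, 13.6 CPM in HER2 early and 3.28 CPM in wildtype early, and 3 cells held 84.6% of the HER2 late UMIs. In the authors' deposited table of mean signal over AM cells, scaled to 10000, Retnla had 0.0145 in HER2 late, 0.0135 in wildtype late, 0.0832 in HER2 early and 0.0280 in wildtype early. HER2 early was the highest library in both sources, while HER2 late was high only in the sums over AM cells made here. AM-class cells with 10 or more Retnla UMIs (4, 0, 4 and 2 by library) carried both kinds of marker: over the 3 kinds described below their medians were 22 to 26.5 C1q UMIs and 46 to 90 UMIs of the alveolar genes.

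Lyve1 and Mgl2 were also found in cells of neither macrophage class. Lyve1 had 267, 132, 212 and 107 CPM in other cells of HER2 late, wildtype late, HER2 early and wildtype early. Of these Lyve1 cells, 40 of 41, 40 of 40, 56 of 57 and 28 of 29 carried at least 3 UMIs of an endothelial list. In the IM class, by contrast, 1 of 23, 1 of 24, 2 of 42 and 2 of 39 Lyve1 cells did, and their median C1q UMIs were 46.5 to 68. Mgl2 in other cells was at 84.8, 114, 80.0 and 109 CPM, and 15 of 17, 18 of 23, 18 of 19 and 17 of 23 of its cells had 3 UMIs of a dendritic cell list. F13a1 was in 2, 7 and 1 other cells of HER2 late, wildtype late and HER2 early, of which 0 held 3 T cell UMIs, and in 28 of wildtype early, of which 22 did.

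**Figure D3:**
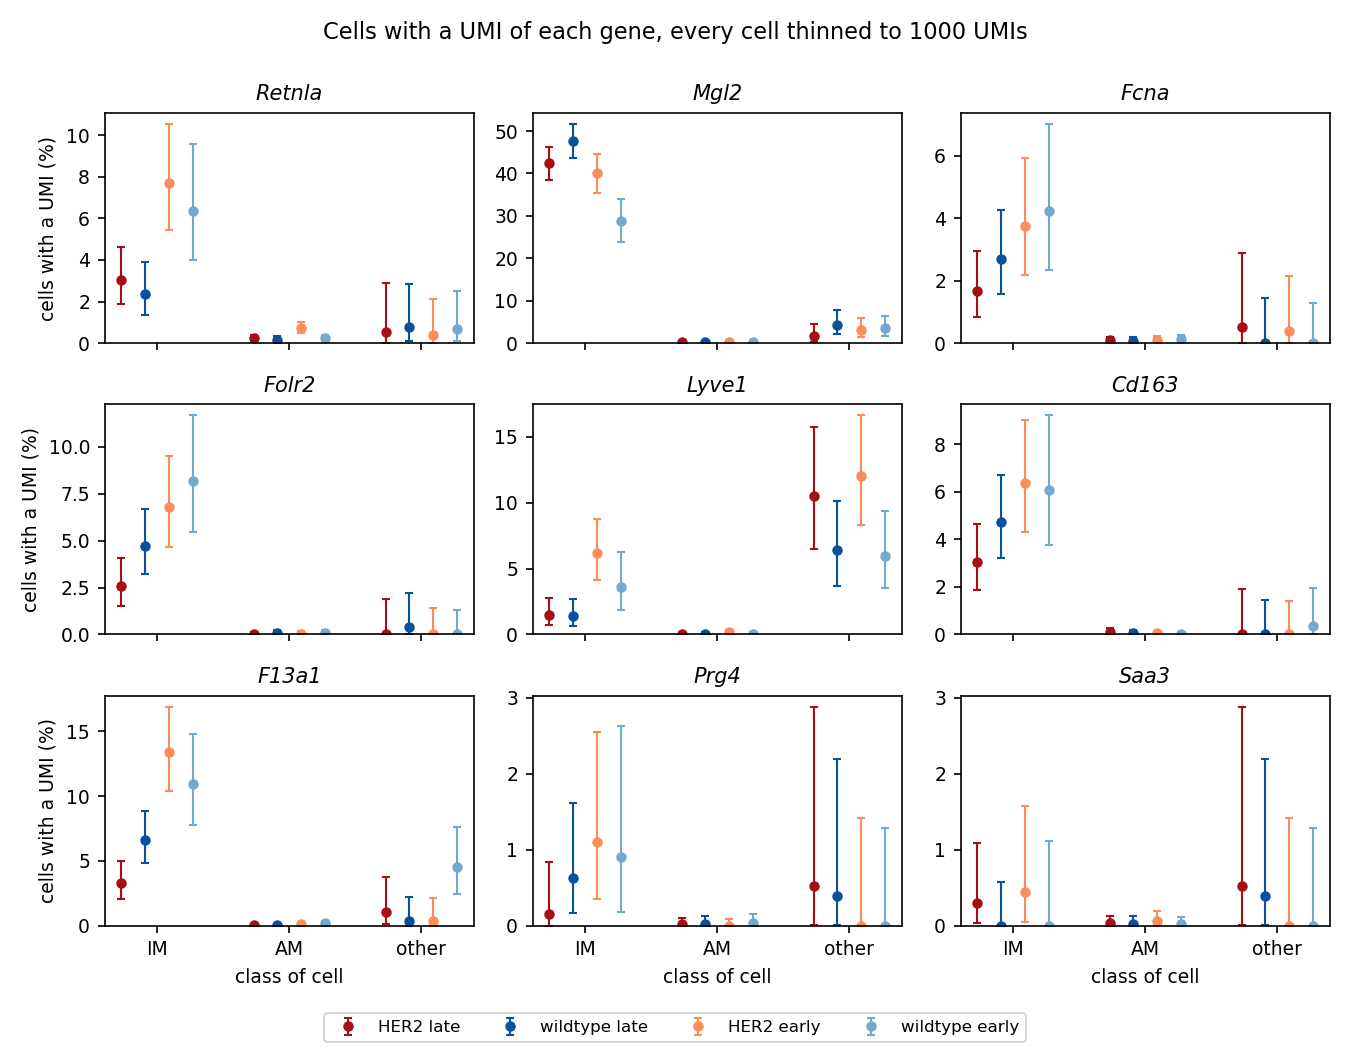
Share of cells (%) with a UMI of each gene in IM, AM and other cells, every cell thinned to 1000 UMIs, with exact binomial 95% intervals and a point per library. Mgl2 lies at 28.8 to 47.7% of IM cells, the other genes lie near 0 in AM cells, and Lyve1 is higher in other cells than in IM cells of the same library.

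HER2 early was compared with wildtype early to ask what differs at the early lesion stage. Retnla was 1.83-fold higher in HER2 early (log2 0.88, interval 0.79 to 0.96) and Mgl2 1.68-fold higher (log2 0.75, 0.63 to 0.87). Fcna (log2 -0.13), Folr2 (0.13), Lyve1 (0.10), Cd163 (-0.09) and F13a1 (0.06) all had intervals that included 0. Prg4 was at log2 2.24 (1.74 to 2.78) and Saa3 at log2 5.52 (3.94 to 7.82), each from the few cells named above. Thus 4 of 9 genes were at least 1.5-fold higher and 0 lower, where 2.79% of the 3224 genes that reached 50 CPM in 1 or both libraries were higher and 8.5% lower. Prg4 and Saa3 reached 50 CPM in HER2 early only. Without cells holding 3 or more UMIs of T cell or other lineage lists, Retnla was at log2 0.77, Mgl2 at 0.39, under 1.5-fold, Prg4 at 1.36 and Fcna at -0.81, past 1.5-fold lower, while 2.64% of genes were then lower. Lyve1 was then at -0.29 and Cd163 at 0.55. Without the 12 IM cells that held 3 or more Prg4 UMIs over the 4 libraries, Saa3 was at log2 0.12 and 2 genes stayed past 1.5-fold.

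At the late stage HER2 was compared with wildtype in mice with palpable tumours. Retnla was 2.52-fold lower in HER2 late (log2 -1.33, -1.45 to -1.21). Fcna was lower by 2.43-fold (log2 -1.28, -1.61 to -0.96), Folr2 by 1.96-fold (log2 -0.97, -1.32 to -0.63), F13a1 by 1.96-fold (log2 -0.97, -1.22 to -0.73) and Lyve1 by 1.67-fold (log2 -0.74, -1.10 to -0.37). The Lyve1 fold was past 1.5-fold in 7 of 11 alternatives, and at log2 -0.51 without cells of other lineages (36.6 CPM in HER2 late, 52.3 CPM in wildtype late). Mgl2 was at log2 -0.42 (-0.51 to -0.33) and Cd163 at -0.18 (-0.49 to 0.14), neither past 1.5-fold. That is 5 of 9 genes lower and 0 higher, where 6.9% of 3058 genes were lower, 2.35% higher and 9.25% past 1.5-fold either way. Prg4 and Saa3 were under 50 CPM in both libraries, and Fcna, Folr2 and Lyve1 reached it in wildtype late only. The size of the Retnla difference rested on a few wildtype late cells: it was log2 -0.81 without the 3 richest cells of each library and -0.70 without the Prg4 cells, which include the cell with 425 UMIs.

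Most of the 9 genes were lower in HER2 late than in HER2 early. Retnla was 5.03-fold lower in HER2 late (log2 -2.33, -2.44 to -2.22). Folr2 was lower by 3.93-fold (log2 -1.98), Lyve1 by 3.801-fold (log2 -1.93), F13a1 by 3.66-fold (log2 -1.87) and Fcna by 2.91-fold (log2 -1.54). Prg4 was at log2 -2.68 and Saa3 at -0.84, while Mgl2 (-0.06) and Cd163 (-0.40) were within 1.5-fold. In all 7 of 9 genes were lower and 0 higher, where 2.64% of 2922 genes were lower and 1.03% higher. Fcna, Folr2, Lyve1, Prg4 and Saa3 reached 50 CPM in HER2 early only, so a call for them could only be lower. Retnla and F13a1 were lower with at least 50 CPM in both libraries. Saa3 turned to log2 0.83 without the Prg4 cells.

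In wildtype mice over the same ages the order was mixed. Mgl2 was 2.16-fold higher in wildtype late (log2 1.11, 0.99 to 1.23). Lyve1 was lower by 2.12-fold (log2 -1.09), Folr2 by 1.83-fold (log2 -0.87) and F13a1 by 1.79-fold (log2 -0.84). Retnla was at log2 -0.12 (-0.22 to -0.02), Fcna at -0.39 and Cd163 at -0.32. So 3 of 9 genes were lower and 1 higher, where 12.4% of 3353 genes were lower and 10.4% higher. Prg4 and Saa3 were under 50 CPM in both libraries. Retnla passed 1.5-fold without the 3 richest cells (log2 -1.02) or without the Prg4 cells (log2 -0.75). Taking out cells of other lineages put Mgl2 at log2 0.69, Fcna at -0.99, past 1.5-fold, F13a1 at -0.55, under it, and Cd163 at 0.20. These 4 comparisons share libraries 2 by 2 and are not independent of each other.

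Lists of further genes showed which neighbours moved with the 9 genes. Of 24 resident macrophage partners (such as the mannose receptor Mrc1, Cbr2 and the chemokine Ccl8), 10 of 17 tested were lower in HER2 late than in wildtype late, where 6.9% of all genes were, and 10 of 17 lower in HER2 late than in HER2 early, where 2.64% were. Genes that reached 50 CPM only in the library where they were high had to differ: of those at 50 CPM in both libraries, 6 of 12 and 6 of 13 were lower. Without cells of other lineages 7 of 16 and 9 of 17 were lower. The 2 lowest in both comparisons, Ccl8 and Cd209f, were under 50 CPM in HER2 late. Ccl8, a chemokine, had 26.6 CPM in HER2 late, 115 CPM in wildtype late and 118 CPM in HER2 early. Cd209f, a C-type lectin, had 26.1, 52.1 and 108 CPM in these libraries. In the early comparison 1 of 20 was lower, the phosphatidylserine receptor Timd4 (49.2 CPM in HER2 early, 73.8 CPM in wildtype early), where 8.5% of genes were. In wildtype late over wildtype early 6 of 20 were lower, where 12.4% of genes were, and 1, the scavenger receptor Stab1, was higher. Without cells of other lineages 3 of 18 were lower there. The median log2 fold of the tested partners was 0.16 for HER2 over wildtype early, -0.67 for HER2 over wildtype late, -0.74 for late over early in HER2 and -0.06 for late over early in wildtype, against -0.07, -0.12, -0.05 and -0.05 over all genes tested.

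Of 24 genes of the interleukin-4 and STAT6 route, 10 were tested in each comparison. In HER2 over wildtype early 1 of 10 tested passed 1.5-fold, the cytokine receptor chain Il2rg, which lymphocytes also express. It had 67.7 CPM in HER2 early against 117 CPM in wildtype early, and without cells of other lineages 61.0 against 67.5 CPM, under 1.5-fold. The share lower over all genes was 8.5%. In HER2 over wildtype late 4 of 10 were lower, with Ccl24 (30.0 CPM in HER2 late, 50.4 CPM in wildtype late) and Mrc1 (504 and 802 CPM) the lowest, where 6.9% of genes were, and Chil3 was higher, a gene that also defined the classes. Ccl24 reached 50 CPM in wildtype late only, and without cells of other lineages 2 of 10 were lower. In late over early of HER2 mice 2 of 10 were lower, Ccl24 (30.0 CPM in HER2 late, 81.5 CPM in HER2 early) and Clec10a, where 2.64% of genes were. In wildtype mice 1 of 10 was higher, the receptor chain Il13ra1, and 1 of 10 lower, Il2rg, where 10.4% of genes were higher and 12.4% lower. Leaving out cells of other lineages gave 2 of 10 higher and 0 lower there. Mrc1, Clec10a and Ccl24 stand in both lists. Of the MHC class II and Cx3cr1 list, 0 of 14 were lower in any of the 4 comparisons, and 1 in HER2 over wildtype early, 1 in HER2 over wildtype late, 2 in late over early of HER2 and 5 in late over early of wildtype were higher. Without cells of other lineages these were 0, 1, 1 and 1, with 1 lower in wildtype. The antigen presentation gene H2-Aa was higher in HER2 late (9278 CPM) than in wildtype late (5557 CPM). Of 18 cavity macrophage genes, all 4 tested were lower in HER2 late than in HER2 early, where 2.64% of genes were, with fibronectin (Fn1) at 23.8 and 165 CPM and the chemokine Cxcl13 at 131 and 595 CPM. Only 1 of these had 50 CPM in both libraries. In wildtype mice 3 of 4 were lower in wildtype late, where 12.4% of genes were, with Fn1 at 37.1 CPM against 96.4 CPM in wildtype early. Of the 2 at 50 CPM in both libraries 1 was lower. In HER2 over wildtype early 2 of 5 were higher (Slpi and Fn1), where 2.79% of genes were, and 1 lower (Timd4). Of the 3 at 50 CPM in both libraries 1 was higher and 0 lower. Fn1 was at log2 -0.10 there without cells of other lineages. All 6 tested cell cycle genes were lower in HER2 early than in wildtype early, where 8.5% of genes were. All 6 were also lower in wildtype late than in wildtype early, where 12.4% of genes were. Most of them reached 50 CPM in wildtype early only, so a call for these could only be lower. Of those at 50 CPM in both libraries 1 of 1 and 2 of 2 were lower. Pclaf had 13.4 CPM in HER2 early, 11.05 CPM in wildtype late and 81.0 CPM in wildtype early, the library with the T cell RNA, where it had 54.2 CPM without cells of other lineages. In that setting 4 of 4 tested cell cycle genes were lower in HER2 early than in wildtype early and 3 of 4 lower in wildtype late than in wildtype early. The shares over all genes were then 2.64% and 8.49%. Of the cell cycle genes at 50 CPM in both libraries 1 of 1 and 1 of 2 were lower.

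Retnla, Fcna, Folr2, Lyve1, Cd163 and F13a1 were found in the same IM cells in every library. With cells thinned to 1000 UMIs, cells holding both genes of a pair exceeded the number that the separate shares give by 3.49 to 30.0 times, over 15 pairs and 4 libraries. The interval of the ratio lay above 1 in 58 of the 60 values. Retnla and Folr2 shared 7 cells in HER2 late, 6 in wildtype late, 11 in HER2 early and 6 in wildtype early, 13.6, 8.44, 4.61 and 3.49 times the number expected. Folr2 and F13a1 shared 11, 17, 22 and 15 cells, 19.4, 8.54, 5.29 and 5.09 times the number expected. The ratios of Mgl2 with these 6 genes were 0.289 to 1.07, and no interval lay above 1. A ratio cannot exceed 1 divided by the share of the commoner gene. Thinned, Mgl2 was in 280 of 661, 302 of 633, 182 of 455 and 95 of 330 IM cells in the same order of libraries. Its ratios thus had a far lower ceiling than those among the rarer genes, and the ranges cannot be compared. Without cells of other lineages, with all UMIs, the pairs among the 6 genes were at 4.05 to 13.4 in HER2 late, 4.41 to 15.9 in wildtype late, 3.16 to 8.49 in HER2 early and 2.04 to 8.31 in wildtype early.

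**Figure D4:**
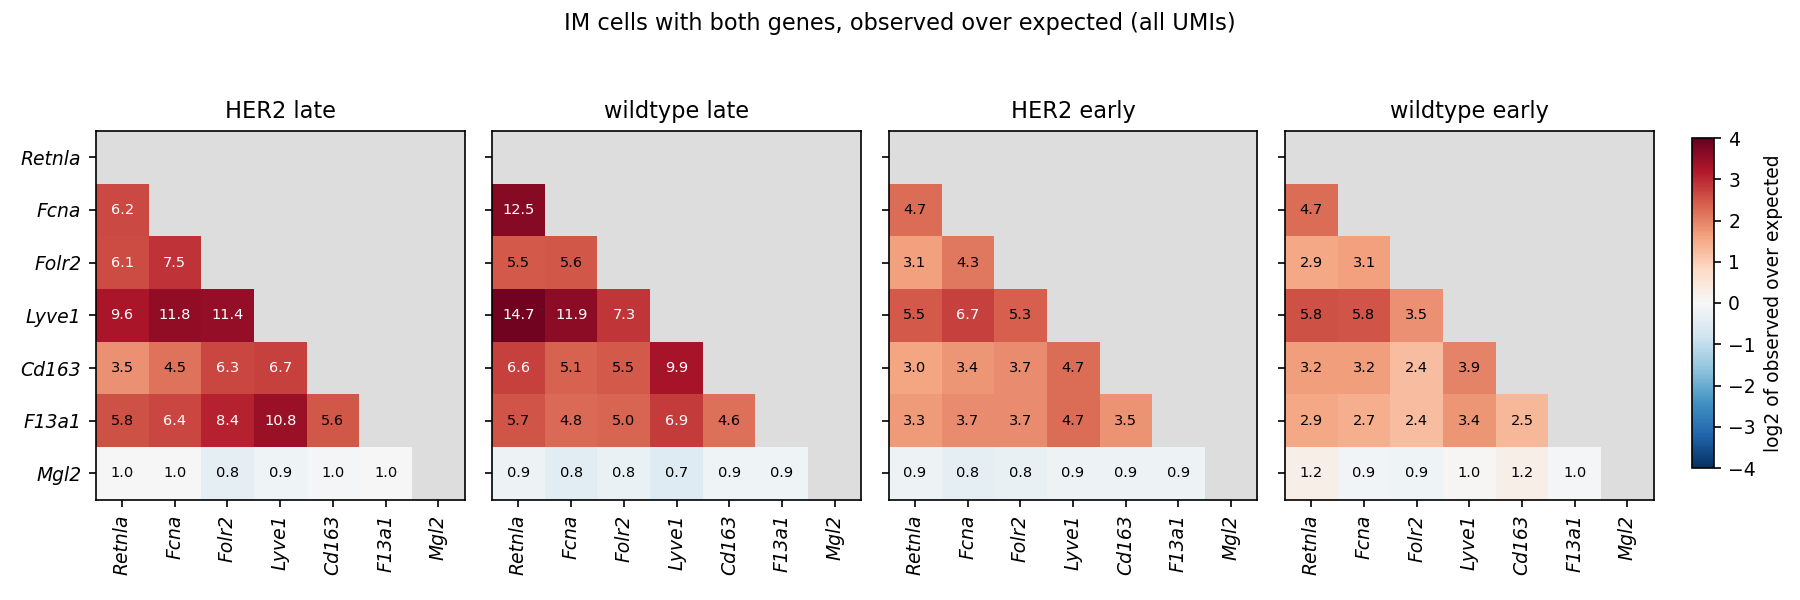
IM cells holding both genes of a pair over the number expected from the 2 shares, with all UMIs and a panel per library, the colour being the log2 of the printed ratio. Pairs among Retnla, Fcna, Folr2, Lyve1, Cd163 and F13a1 lie between 2.36 and 14.7. Pairs with Mgl2 lie between 0.701 and 1.18, but most IM cells held Mgl2, so these ratios could not rise far above 1.

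The genes most like each member over IM cells were found among 6339 genes by Pearson's r, taking the lowest r of the 4 libraries. Over 330 to 661 cells per library, all sharing depth and library, Folr2 was nearest to F13a1 (r 0.540 to 0.765), Cbr2, Ninj1, Cd163 and Pla2g2d. Lyve1 was nearest to Folr2 (lowest r 0.565), F13a1, Cbr2, Cd163 and Ltc4s. Cd163 was nearest to F13a1, Folr2, Cbr2, the protease gene Mmp9 and the transcription factor Maf, and F13a1 to Folr2, Cbr2, Cd163, Ninj1 and Maf. Fcna was nearest to Ltc4s, which makes leukotriene C4 (lowest r 0.481), Folr2, Cbr2, F13a1 and Cd163. Retnla had fewer than 20 cells in wildtype late, so its list was added after seeing the data: F13a1 (lowest r 0.415), Folr2, Cbr2, Ltc4s and Ifitm3. For Mgl2 the nearest were H2-Ab1, Cd74, H2-Aa, C1qc and H2-DMa at a lowest r of 0.131 to 0.229, which is weak in counts this sparse.

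IM cells with a Folr2 UMI differed from those without in the same way in every library. Of 21 tested resident partners 20 were at least 1.5-fold higher in all 4 libraries, where 5.3% of 2696 genes were. Genes such as Cbr2 and Ccl24 reached 50 CPM only through the Folr2 cells and so had to be higher. Of the 10 partners at 50 CPM in the cells without Folr2 too, 9 were higher, where 2.79% of 2293 such genes were. Cbr2, a carbonyl reductase, had 472 CPM with and 11.8 CPM without Folr2 in HER2 late, 530 and 28.1 CPM in wildtype late, 466 and 23.9 CPM in HER2 early, and 274 and 14.3 CPM in wildtype early. The eotaxin Ccl24 had 316 and 6.44 CPM, 282 and 23.7 CPM, 358 and 17.5 CPM, and 226 and 9.73 CPM with and without Folr2 in the same libraries. Of 14 MHC class II and Cx3cr1 genes 10 were lower in all 4 libraries, where 1.89% of genes were. The monocyte chemokine receptor Ccr2 was among them, with 88.4 and 286 CPM in HER2 late, 85.5 and 300.1 CPM in wildtype late, 87.2 and 252 CPM in HER2 early and 23.2 and 169 CPM in wildtype early. In wildtype early Ccr2 reached 50 CPM only in the cells without Folr2, so its call there could only be lower. The number of the 14 genes at 50 CPM in the Folr2 cells too was not counted. Cells with a Folr2 UMI were deeper, at a median of 5994, 3683, 5175 and 8466 UMIs against 5170, 3142, 4422 and 6081 UMIs.

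Retnla cells carried the same partners but not so uniformly the low MHC class II. In cells with a Retnla UMI 21 of 22 tested partners were at least 1.5-fold higher in all 4 libraries, where 3.67% of 2642 genes were, and 10 of the 11 that reached 50 CPM in the cells without Retnla too, where 1.89% of 2327 such genes were. Of 14 MHC class II and Cx3cr1 genes 3 were lower in all 4 (Cx3cr1, Cd72 and Il1b), where 1.51% were. The number of the 14 genes at 50 CPM in the Retnla cells too was not counted. That list summed to 43736 CPM in Retnla cells and 53467 CPM in the rest of HER2 late, 19132 and 43920 CPM in wildtype late, 27909 and 48035 CPM in HER2 early, and 16745 and 36131 CPM in wildtype early. Of the STAT6 route, Mrc1, Clec10a, Ccl24 and Klf4 were higher in all 4 libraries, 4 of 8 tested. The first 3 of these are also among the partners. Ccl24 had 30.0 CPM over all IM cells of HER2 late. It reached 50 CPM there only through the Retnla cells and so had to be higher. How many of the 8 reached 50 CPM in the cells without Retnla too was not counted. Stat6 itself had 73.1 CPM with and 63.4 CPM without Retnla in HER2 late and 65.2 and 62.6 CPM in HER2 early. Cells with an Mgl2 UMI showed few differences, 0.156% of 2570 genes being higher in all 4 libraries and 0.233% lower, and of the lists Ccr2 was higher and Fcna, Ltc4s and Fn1 lower.

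To count resident cells, IM cells with at least 2 of Fcna, Folr2, Lyve1, Cd163 and F13a1 were taken, a rule set after seeing the data. They were 45 of 661 in HER2 late (6.81%, 5.01 to 9.004), 54 of 633 in wildtype late (8.53%, 6.47 to 10.98), 74 of 455 in HER2 early (16.3%, 12.99 to 19.98) and 66 of 330 in wildtype early (20%, 15.8 to 24.7). HER2 and wildtype overlapped at both stages and the late libraries lay under the early ones. Thinned to 1000 UMIs the shares were 2.72% (1.62 to 4.27), 5.21% (3.62 to 7.24), 9.67% (7.11 to 12.8) and 6.97% (4.47 to 10.3). The intervals of wildtype late and wildtype early then overlapped, so the order of stages in wildtype could not be read. Without cells of other lineages they were 6.21%, 7.68%, 14.3% and 14.1%. In wildtype early, 26.9% of the cells with T cell UMIs and 13.5% of the rest met the rule, at median depths of 7617 and 5187 UMIs.

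These few cells held most of the molecules of the 5 genes, by the rule, and also 81.0% of the Retnla UMIs of IM cells in HER2 late, 96.3% in wildtype late, 71.7% in HER2 early and 86.3% in wildtype early. Retnla was in 13 of 45, 11 of 54, 31 of 74 and 29 of 66 of them, against 17 of 616, 7 of 579, 22 of 381 and 6 of 264 of the other IM cells. The set also took in cells with Prg4, and held 39.1%, 52.8%, 31.6% and 100% of the Prg4 UMIs of IM cells in the same order of libraries. In wildtype late a cell with 34 Prg4 UMIs gave 425 of the 1357 Retnla UMIs of the set. Within the set the level of Retnla was 2311 CPM in HER2 late, 6056 CPM in wildtype late, 4704 CPM in HER2 early and 2243 CPM in wildtype early. Folr2 within the set was at 364, 571, 665 and 390 CPM, and F13a1 at 684, 1062, 1214 and 820 CPM. For each of these 3 genes the 2 lowest levels within the set were those of HER2 late and wildtype early. In wildtype early, however, 43 of the 66 cells of the set held 3 or more T cell UMIs. These were 4 of 45 in HER2 late, 4 of 54 in wildtype late and 13 of 74 in HER2 early. Levels within the set without such cells were not computed, and the part of T cell RNA was not tested. H2-Aa, H2-Ab1, H2-Eb1 and Cd74, a part of the MHC class II and Cx3cr1 list, are called the MHC class II list from here on. Their sum was at 25873 CPM in the set and 50841 CPM in the rest of HER2 late, 15512 and 41807 CPM in wildtype late, 15130 and 47690 CPM in HER2 early, and 13999 and 36346 CPM in wildtype early. The sum was highest in the HER2 late set.

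Cells with 10 or more Retnla UMIs, chosen after seeing the data, numbered 14 in HER2 late, 10 in wildtype late, 32 in HER2 early and 21 in wildtype early among IM cells, and they held 911, 1378, 2815 and 1641 Retnla UMIs. They were of 3 kinds. In 51 cells (9, 7, 19 and 16 by library) Folr2 or Lyve1 was present and the MHC class II list (H2-Aa, H2-Ab1, H2-Eb1 and Cd74) had a median of 3462 CPM. In these 51 cells Mrc1 was in 51, F13a1 in 49, Fcna in 45, Mgl2 in 40, Cd163 in 37 and Ccr2 in 9. In 8 cells (1, 3, 3 and 1) there were at least 3 Prg4 UMIs, the cavity macrophage list had a median of 9796 CPM and the MHC class II list 149 CPM. In 18 cells (4, 0, 10 and 4) neither Folr2 nor Lyve1 nor 3 Prg4 UMIs were found, Mrc1 was in 18 and F13a1 in 6, the MHC class II list had a median of 45819 CPM, Mgl2 was in 15 and Ccr2 in 13. Outside the IM and AM classes 5 cells had 10 or more Retnla UMIs, all with 0 C1q UMIs, and they were not alike. A HER2 early cell had 510 of its 8026 UMIs from Retnla, 15 Ccr2 UMIs and 198 UMIs of the MHC class II list, and 3 more cells held Ccr2 and 157 to 481 UMIs of that list. A wildtype late cell with 41 Retnla UMIs had 0 Ccr2 UMIs, 2 of that list, and at least 3 UMIs of the epithelial and of the mesothelial list.

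**Figure D5:**
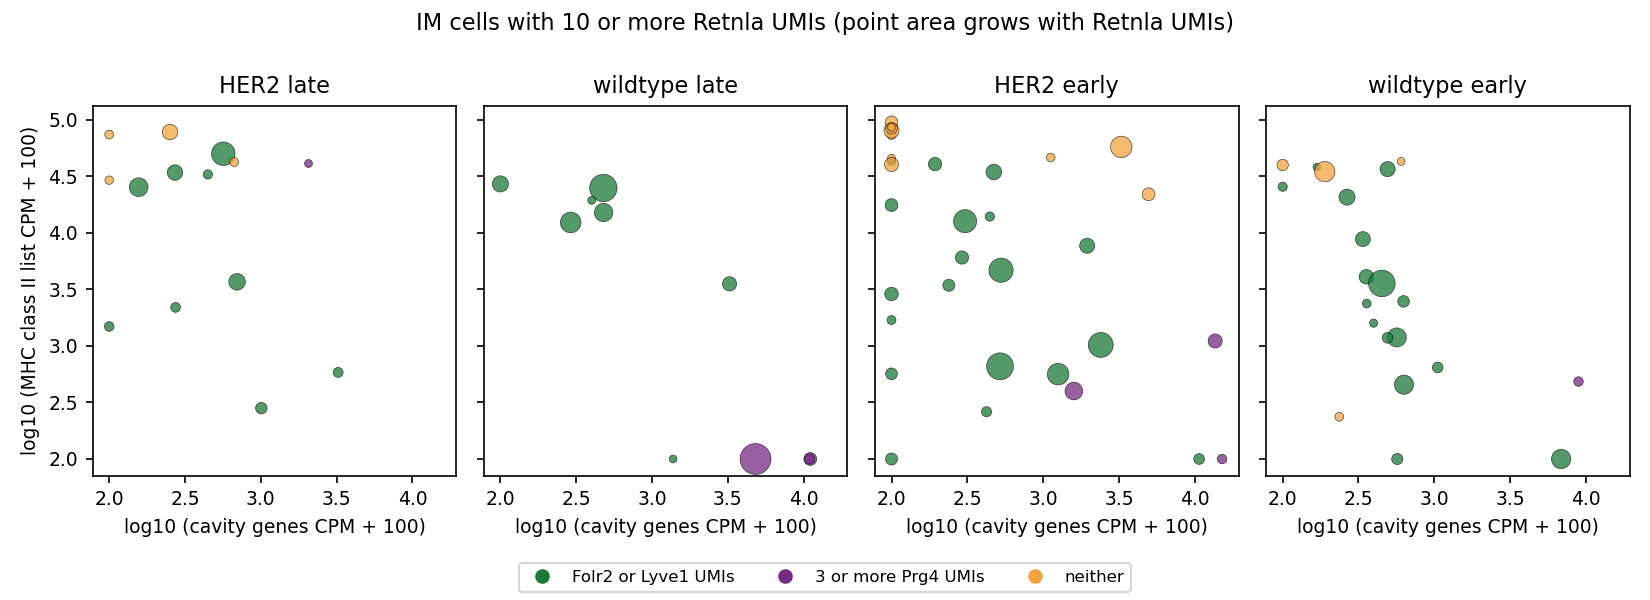
IM cells with 10 or more Retnla UMIs by their cavity macrophage list (x axis) and MHC class II list (H2-Aa, H2-Ab1, H2-Eb1 and Cd74, y axis), both as log10 of CPM plus 100, with a panel per library, larger points for more Retnla UMIs, and green for Folr2 or Lyve1, purple for Prg4 and orange for neither. The 8 cells with Prg4 lie mostly at the lower right and the 18 cells with neither mark mostly at the top, and wildtype late has 0 of the 18.

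Cells with 3 or more Prg4 UMIs numbered 15 in all, 12 in the IM class, 1 in the AM class and 2 in neither. All 15 held Fcna, 11 held Retnla, 8 held Saa3, 12 held Icam2, an adhesion molecule of cavity macrophages, and 2 held Gata6, the transcription factor that defines those cells. Mgl2 was in 1 of them, and 13 had at most 5 UMIs of the MHC class II list. Their cavity macrophage list had a median of 10841 CPM (1005 to 18657), while the median over all IM cells was 0 CPM in HER2 late, wildtype late and HER2 early and 111 CPM in wildtype early. The highest IM cells, however, reached 23220, 20827, 46485 and 25620 CPM in the same order of libraries, above all 15 of these cells. A high sum of this list was thus not particular to the cells with Prg4. In IM cells with any Prg4 UMI 6 of 8 tested cavity genes were at least 1.5-fold higher in all 4 libraries (Icam2, Alox15, Selp, Vsig4, Timd4 and Fn1), where 4.06% of 2662 genes were higher and 3.83% lower. All 6 reached 50 CPM only through the Prg4 cells in at least 1 library, and so had to be higher there. Just 1 tested cavity gene had 50 CPM in the cells without Prg4 of all 4 libraries. Of this 1 gene 0 was higher, where 1.95% of 2359 such genes were. The Saa3 of HER2 late came with Prg4: 1 cell had 117 Saa3 and 26 Prg4 UMIs among 5894, and a cell outside the class had 55 and 7 among 1608. In HER2 early 2 cells with 54 and 61 Prg4 UMIs had 78 and 50 Saa3 UMIs, while 2 with 52 and 8 Prg4 UMIs had 0. In HER2 late a cell with 16 Prg4 UMIs also had 0 Saa3 UMIs. The 4 IM cells of wildtype late with 13 to 35 Prg4 UMIs had 0 to 3 Saa3 UMIs, and a wildtype late cell outside the class had 9 beside 47 Prg4 UMIs. Wildtype early cells with 4 to 30 Prg4 UMIs had 0 to 2.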

How the data were processed

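Lungs were digested, macrophages sorted and 10x 3′ libraries made, per the labels' protocols. UMI counts of every gene in every barcode were deposited, made with Cell Ranger 5.0.1 on mm10 per the submitters' processing notes. They also deposited mean signal over AM cells, scaled to 10000 by the authors. Library totals were 39228655, 30587008, 28786682 and 34858960 UMIs in HER2 late, wildtype late, HER2 early and wildtype early.

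Barcodes with at least 1000 UMIs, 500 genes and at most 10% mitochondrial UMIs were kept, and the mitochondrial limit removed 12.8, 13.3, 17.0 and 21.0%. Libraries shared 1 to 13 barcodes by pair. No doublet caller was run, and 110, 59, 56 and 35 IM cells held 5 or more UMIs of both C1q and AM genes. Counts were summed per library and class. Intervals are exact Poisson, Clopper-Pearson or, for folds, conditional binomial at 95%. No test was made, since cells are not replicates. The members, lists and rules were chosen with earlier results of these data known. The 9 genes were named throughout, with the 5 likest genes of each and the 2 highest and lowest of each list. Near-identical copies were sought with BLAST 2.17.0 in the last 300 bases of GENCODE M21 transcripts (95% over 90 bases). Python 3.11.15, numpy 2.4.6 and scipy 1.17.1 were used, and the calculations were tested on simulated data. Alternatives changed filters, class rules, free RNA, weighting and thresholds.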

Additional observations from a re-analysis of the deposited data

Results flagged for a closer look

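Retnla in IM cells went opposite ways at the 2 stages. It was higher in HER2 than in wildtype at the early stage (log2 fold 0.88, 1242 against 677 CPM) and lower in HER2 than in wildtype at the late stage (log2 fold -1.33, 247 against 623 CPM). The difference between the stages was not tested, because each group is 1 library. The direction at each stage was kept in all 11 alternatives, with log2 folds of 0.77 to 1.06 early and -1.56 to -0.70 late. The share of IM cells with Retnla, by contrast, did not turn: it was 11.6% in HER2 early against 10.6% in wildtype early (53 and 35 cells) and 4.54% in HER2 late against 2.84% in wildtype late (30 and 18 cells), with overlapping intervals, and the T cell RNA of wildtype early and the few richest cells stand beside these values as given above.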

How the results depend on the processing

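Retnla in HER2 over wildtype early (log2 0.88) was 0.78 with C1q at least 5 times the AM genes, 1.06 without the 3 richest cells and 0.77 without cells of another lineage. In HER2 over wildtype late (-1.33) it was -1.55 and -1.56 with the stricter C1q rule and without other lineages, -0.81 without the 3 richest cells, -0.86 with every cell weighing the same, -1.21 with the median fold set to 1 and -0.70 without Prg4 cells. Late over early in HER2 (-2.33) was -2.52 with a mitochondrial limit of 20%, -2.89 without the 3 richest cells, -2.65 without cycling cells and -2.46 without other lineages. In wildtype (-0.12) it was 0.00064 with at least 2000 UMIs, -0.0049 with the stricter C1q rule, -1.02 without the 3 richest cells, -0.48 with every cell weighing the same, -0.47 without cycling cells and -0.75 without Prg4 cells. Members past 1.5-fold early (4) were 2 without the 3 richest cells, with every cell weighing the same, without Prg4 cells or at 2-fold. Late (5) they were 3 without the 3 richest cells and 2 at 2-fold, and still 5 without other lineages, when Lyve1 was under 1.5-fold and Prg4 came past it, and in wildtype late over early (4) they were 2 at 2-fold. Saa3 in late over early of HER2 (-0.84) turned to 0.39 with every cell weighing the same and 0.83 without Prg4 cells. Folr2 folds moved by less than their counting intervals in all 44 alternatives. Folds to or from 0 UMIs, as for Saa3 without its 3 richest cells, gave no value. The Prg4 setting, and the lists, pairs and splits without other lineages or at 50 CPM on both sides, were added after seeing the data. No paired analysis was possible because each group is 1 library. Prg4 and Saa3 rest on 2 to 6 cells per library, and a difference between mice cannot be told apart from one between groups.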
